A study of Mus musculus with 10 samples.

Results

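The genes described here are 9 components of insulin and insulin-like growth factor (IGF) signalling in mouse embryonic fibroblasts (MEFs) under reprogramming: the receptors Insr, Igf1r and Igf2r, the ligand Igf1, the adaptors Irs1 and Irs2, the phosphoinositide 3-kinase (PI3K) subunits Pik3r1 and Pik3ca, and the kinase Akt2. They were chosen by name from the 48476 genes of the series table, with earlier results of these data known. All 9 had a single row in it and in the 50600 genes of each library. MEFs from E13.5 embryos of the strain CBA/CaJ X C57BL/6J, which carry an Oct4-GFP reporter per the methods, received retroviral Oct4, Klf4 and Sox2 (OKS). DsRed, a red fluorescent protein abbreviated DR in the labels, was added in the control arm and FoxO6 in the other, so both arms carry OKS. Per the methods, cells were moved to iCD1 medium after infection. The labels do not define day 0, so it is not known if those libraries had been in that medium. Each arm gave 1 bulk mRNA library at days 0, 1, 3, 5 and 7, which makes 10 libraries with no replicate of any arm and day. The 5 libraries of an arm may come from a single infected culture, and a p-value then describes these 2 time courses and not independent infections.

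Insulin and IGF1 bind the receptor tyrosine kinases Insr and Igf1r, which phosphorylate the docking proteins Irs1 and Irs2. These recruit PI3K, an enzyme of a catalytic and a regulatory subunit, and the lipid it makes activates Akt kinases. Akt in turn phosphorylates FoxO factors, which moves most of them out of the nucleus, while FoxO6 is known as the member that stays largely nuclear. FoxO factors of other tissues are known to raise transcription of Insr and Irs2.

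The libraries held between 1208379 and 2225750 expected counts, the read numbers that RSEM assigns to a gene. Levels are given as TPM, the transcript share that RSEM estimates, which is scaled for transcript length and can be compared between genes, or as CPM, counts relative to the library total scaled by TMM, which can be compared only within a gene. Foxo6 had a TPM of 0.61 to 2.29 in OKS + DsRed and of 762.11 to 1356.41 in OKS + FoxO6, and it was already at 1017.2 in the OKS + FoxO6 library of day 0, so day 0 is not a sample without the added factor. All 11 fibroblast markers were above 0 in all 10 libraries, and their summed TPM over the 5 days was 9170, 7140, 4640, 3000 and 3050 in OKS + DsRed and 8830, 5180, 4730, 4080 and 3370 in OKS + FoxO6. The 9 epithelial markers summed to 752 TPM at day 7 in OKS + DsRed and to 189 in OKS + FoxO6, and the 6 pluripotency markers to 266 and 34.9. Of the 9 macrophage markers, 2 to 7 were above 0 in a library, and the TPM was mainly that of Cd68 (7.95 to 52.6). Lyz2 was also above 0 in all 10 libraries, at 0.79 to 6.17. Ptprc was at 0 in 4 of the 10, Fcgr3 in 6, Adgre1 and Csf1r in 7, C1qb in 8, and C1qa and Tyrobp in 9. Endothelial markers, 6 in all, summed to 20.8 to 56.5 TPM in OKS + DsRed and to 30.5 to 142 in OKS + FoxO6, mostly from Tek. Kdr was above 0 in all 10 libraries, at 1.23 to 10.8 TPM in OKS + DsRed and 1.7 to 44.6 in OKS + FoxO6. Pecam1 was at 0 in 2 of the 10 libraries, Cdh5 in 6, and Emcn and Cldn5 in 9.

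Over the 5 days, Igf1r, Irs1, Insr and Pik3ca were higher in OKS + FoxO6 than in OKS + DsRed, and none of the 9 genes was called lower. Igf1r, the receptor for IGF1, had the largest shift, with a log2 fold change of 1.14. Irs1, Insr and Pik3ca shifted by 0.68, 0.59 and 0.52. The shift was tested with edgeR's quasi-likelihood test on rounded expected counts, fitted with a level for each day and adjusted by Benjamini-Hochberg over 11028 genes, and an adjusted p under 0.05 was called. Thus 4 of the 8 genes tested were called higher, where 6.86% of all genes tested were called higher and 7.05% lower. The genes were chosen with earlier results of these data known, so this count is a description and no test of enrichment. The count was 1 without day 3, without day 5 or without the day term (Igf1r), and 2 without day 0, without day 1 or with DESeq2 (Igf1r and Irs1). The median shift of the 8 was 0.40 with 7 of them positive, against a median of -0.016 over all genes tested. Igf1 had too few reads to be tested. In bulk RNA, a larger share of cells that express a gene cannot be told apart from more RNA per cell, and the fibroblast, epithelial, pluripotency and endothelial marker sums given above also differed between the arms, those of fibroblasts in opposite directions at days 1 and 5. Their part in these shifts was not tested.

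**Figure D1:**
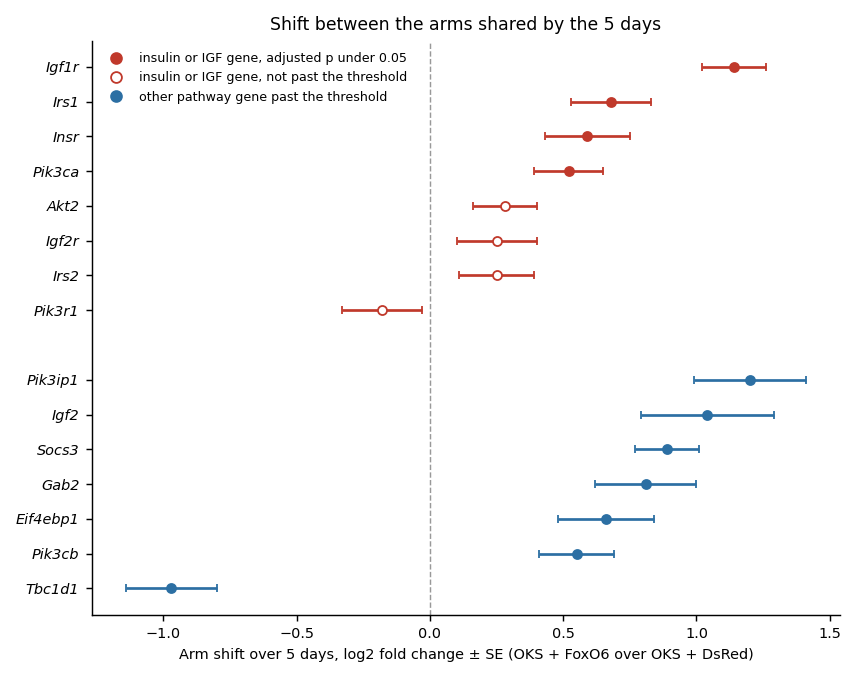
The x axis gives the log2 fold change of OKS + FoxO6 over OKS + DsRed shared by the 5 days, with bars of 1 standard error, for the 8 insulin and IGF genes tested (red; filled where the adjusted p was under 0.05) and for the 7 other pathway genes past that threshold (blue). Igf1r lies at 1.14, apart from the next red point at 0.68, and Pik3r1 is the only red point below 0.

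Igf1r (ENSMUSG00000005533) lies at chr7:67952827-68233668 on the plus strand of GRCm38. The 5 control libraries, in the order of days 0, 1, 3, 5 and 7, had a TPM of 17.9, 31.1, 41.85, 25.2 and 20.3. The 5 OKS + FoxO6 libraries, in the same order as kept for all genes, had 40.9, 57.3, 73.6, 76.65 and 45.7. The gene was higher with FoxO6 on each day, both arms had their lowest level at day 0, and the TPM was highest at day 3 in OKS + DsRed and at day 5 in OKS + FoxO6. In CPM day 3 was the highest in both arms, and days 3 and 5 of OKS + FoxO6 differed by less than counting error (ratio 0.971, 95% counting interval 0.878 to 1.07). From day 5 to day 7 the level per scaled library total changed to 0.731 times in OKS + FoxO6, with a 95% counting interval of 0.648 to 0.824, and to 0.824 times in OKS + DsRed, with an interval of 0.674 to 1.01. At day 7 genes of like length had a median difference of -0.58 in log2 CPM between the arms, so these steps carry a length trend. The shift over the days had a standard error of 0.12 and an adjusted p of 0.000242 by edgeR. The TPM ranges of the arms just overlapped, between 40.9 and 41.85, but the CPM ranges did not, with 111 to 174 in OKS + DsRed and 220.0 to 385 in OKS + FoxO6. TPM and CPM differ here because RSEM's effective length of Igf1r was 8417 nucleotides in the OKS + DsRed library of day 3 and at least 10155 in the other 9, so that library has a higher TPM for its reads.

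Insr (ENSMUSG00000005534, chr8:3122061-3279617, minus strand) encodes the insulin receptor. Over the 5 days its TPM in OKS + DsRed was 4.72, 13.05, 16.5, 17.8 and 8.85, from 27 to 92 reads. With FoxO6 the levels were 14.4, 20.96, 19.9, 23.15 and 8.17, from 68 to 180 reads. In TPM the arms were farthest apart at day 0, and OKS + DsRed was slightly the higher at day 7, where the ratio of OKS + FoxO6 to it per scaled library total was 1.25 (95% counting interval 0.875 to 1.78). Both of these days carry a trend with transcript length between the arms, and against genes of like length Insr was higher with FoxO6 by 0.99, 0.68, 0.23, 0.27 and 0.56 over the 5 days in log2(TPM + 1). The shift of 0.59 over the days had a standard error of 0.16 and an adjusted p of 0.0308 by edgeR, and it lost its call without day 0, 1, 3 or 5 (adjusted p 0.0602 to 0.0964) and with DESeq2 (0.0643). From day 0 to day 1 the level in OKS + DsRed changed 2.49-fold per scaled library total, with a counting interval of 1.60 to 3.98, and in OKS + FoxO6 1.43-fold, with an interval of 1.12 to 1.84. Igf1r was more abundant than Insr in all 10 libraries, by 1.41 to 3.8 times in TPM in OKS + DsRed and by 2.73 to 5.59 times in OKS + FoxO6. The 1.41 is from day 5, where RSEM's effective length of Insr was 6069 nucleotides, against 6734 to 9294 in the other libraries. That library has a higher TPM of Insr for its reads.

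Igf2r (ENSMUSG00000023830, chr17:12682406-12769664, minus strand) encodes the cation-independent mannose-6-phosphate receptor, which takes up IGF2 for degradation and has no kinase domain. The control course of its TPM was 57.4, 87.6, 92.0, 54.9 and 53.6. The FoxO6 course was 90.1, 88.9, 112, 94.1 and 38.0. It was the most abundant of the 3 receptors in 9 of the 10 libraries, and the day 7 library of OKS + FoxO6, where Igf1r at 45.7 exceeded it, was the other. Igf2r did not pass the test over the days (log2 fold change 0.25, standard error 0.15, adjusted p 0.314 by edgeR). Its ratio between the arms ran from 1.42 at day 0 to 1.04, 1.28 and 1.60 at days 1, 3 and 5, and was 0.778 at day 7, with a counting interval of 0.671 to 0.902. From day 5 to day 7 the level changed to 0.496 times in OKS + FoxO6 (interval 0.433 to 0.567) and to 1.02 times in OKS + DsRed (interval 0.886 to 1.18). These intervals cover counting error only and compare single libraries, and the slopes of the arms with day did not differ past the threshold for Igf2r (-0.05 per day, adjusted p 0.874 by edgeR). Day 7 also carries a trend with transcript length between the arms. In log2 CPM the difference of Igf2r at day 7 was -0.36, where genes of like length had a median of -0.58.

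Igf1 (ENSMUSG00000020053, chr10:87858265-87937042, plus strand), the secreted ligand of Igf1r, had its highest TPM at day 0 in both arms. The OKS + DsRed libraries had 20.6, 6.31, 1.46, 0.91 and 0.66 TPM, from 33, 12, 3, 1 and 3 reads. Those of OKS + FoxO6 had 23.0, 10.2, 4.41, 1.33 and 0.64, from 44, 14, 10, 2 and 4 reads. The TPM was lower at each later day in both arms, but per scaled library total the lowest value was at day 5, at 0.0254 times day 0 in OKS + DsRed (interval 0.000624 to 0.152) and 0.0466 times in OKS + FoxO6 (interval 0.00547 to 0.179). From day 5 to day 7 the level per scaled library total changed by a ratio of 2.21 (interval 0.178 to 116) in OKS + DsRed and 2.71 (interval 0.388 to 29.9) in OKS + FoxO6, with intervals that include 1, while RSEM's effective length went from 1612 to 4657 and from 1483 to 6991 nucleotides. At day 1 the level per scaled library total was 0.274 times that of day 0 in OKS + DsRed (interval 0.129 to 0.545) and 0.410 times in OKS + FoxO6 (interval 0.208 to 0.763). At day 7 these ratios were 0.0561 (interval 0.011 to 0.179) and 0.126 (interval 0.0329 to 0.347). Its counts were below the filter of the test, and in the fit without that filter edgeR gave slopes of -0.70 per day on the log2 scale in OKS + DsRed (standard error 0.15, adjusted p 0.0049) and -0.52 in OKS + FoxO6 (standard error 0.14, adjusted p 0.027). A shift between the arms was not detectable at this depth, at 0.18 with a standard error of 0.43 (adjusted p 0.889 by edgeR), and on each of the 5 days the counting interval of the ratio between the arms included 1. RSEM's effective length of Igf1 varied from 1483 to 6991 nucleotides between libraries, so its TPM depends on how few reads were split over transcripts of different length. At day 0 the ratio of OKS + FoxO6 to OKS + DsRed was 0.708 per scaled library total, although the TPM was higher in OKS + FoxO6.

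**Figure D2:**
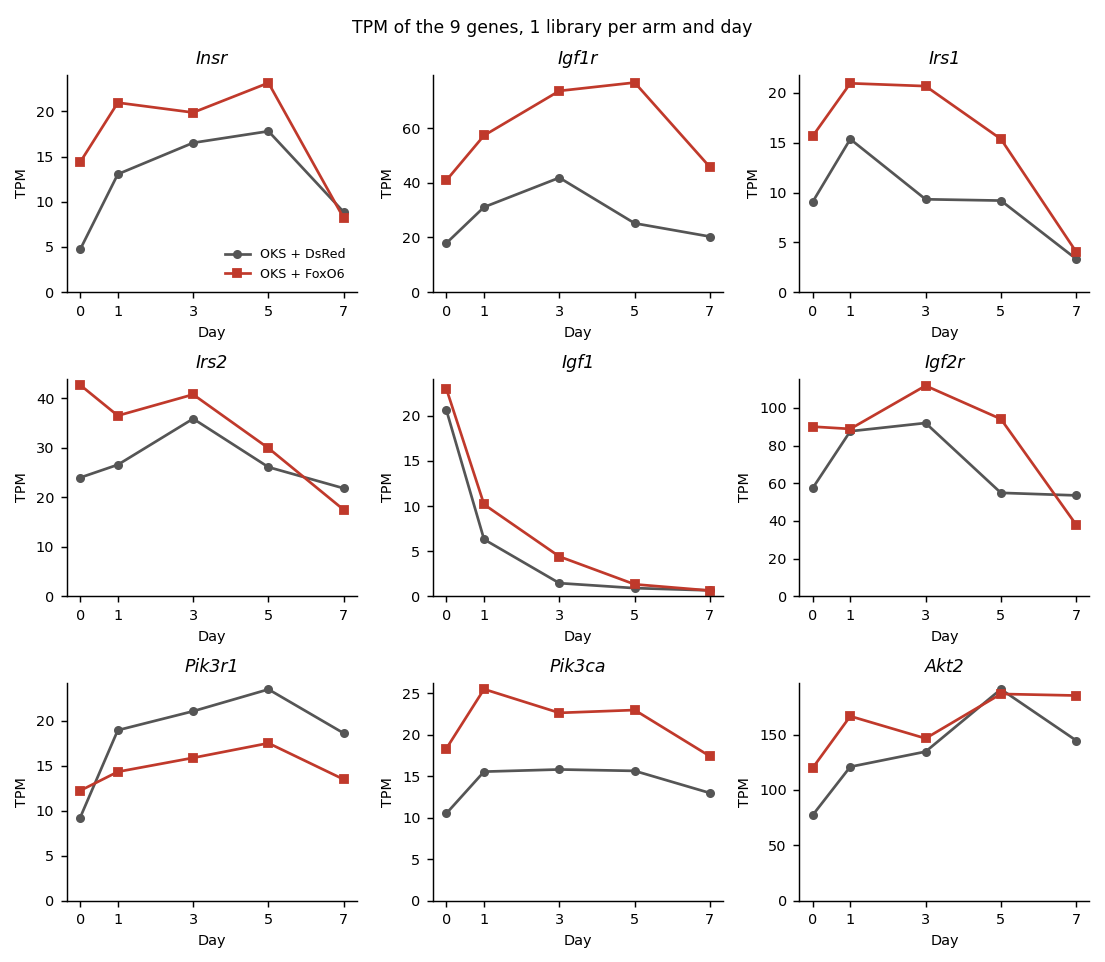
Each panel gives the TPM of a gene (y axis, from 0, with its own scale) against the day of collection (x axis), with 1 library per point in OKS + DsRed (grey circles) and OKS + FoxO6 (red squares). Each Pik3ca point of OKS + FoxO6 (17.4 to 25.5) lies above each control point (10.5 to 15.8), Igf1r is above it on each day, Igf1 falls in both arms, and Pik3r1 is the lower in OKS + FoxO6 from day 1 on.

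Of the docking proteins, Irs1 was called higher with FoxO6 and Irs2 was not. Irs1 (ENSMUSG00000055980, chr1:82233101-82291416, minus strand) stood at 9.05, 15.4, 9.32, 9.19 and 3.33 TPM over the days in OKS + DsRed. With FoxO6 it stood at 15.65, 20.96, 20.7, 15.4 and 4.04. It was higher with FoxO6 on each day, most at day 3, where the ratio per scaled library total was 2.17 (counting interval 1.62 to 2.95). The difference in TPM was least at day 7, where the levels of both arms were at their lowest. The ratio there was 1.36, with an interval of 0.799 to 2.32 that includes 1. From day 5 to day 7 the level changed to 0.375 times in OKS + DsRed (interval 0.231 to 0.597) and to 0.315 times in OKS + FoxO6 (interval 0.209 to 0.462). These steps too carry the length trend of day 7, where genes of like length had a median difference of -0.58 in log2 CPM. The shift over the days was 0.68 with a standard error of 0.15 (adjusted p 0.0131 by edgeR). Exons of Irs1 overlap the protein-coding gene Gm9747 on the opposite strand, which had up to 50.19 expected counts in a library. The strand setting of the counting is not given in the sources used here, so the reads of Irs1 and Gm9747 could not be told apart without it.

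Irs2 (ENSMUSG00000038894, chr8:10984681-11008458, minus strand) had 24.0, 26.6, 35.9, 26.1 and 21.8 TPM in the control libraries. The FoxO6 libraries had 42.7, 36.5, 40.8, 29.9 and 17.5. The FoxO6 arm was higher up to day 5 and lower at day 7, and its ratio to the control, per scaled library total, was 1.61 at day 0 (counting interval 1.28 to 2.05), 1.35, 1.12 and 1.10 at days 1, 3 and 5, and 0.879 at day 7 (interval 0.67 to 1.15). The shift of 0.25 over the days did not pass the test (standard error 0.14, adjusted p 0.292 by edgeR). Irs2 was above Irs1 in all 10 libraries, by 1.73 to 6.56 times in TPM in OKS + DsRed and by 1.74 to 4.33 times in OKS + FoxO6. In both arms the excess of Irs2 over Irs1 was largest at day 7. The annotated transcript on the opposite strand at Irs2, 9530052E02Rik, had at most 1 read in a library.

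The sequences upstream of Irs1, Irs2 and Igf1r are shown because Irs1 and Igf1r had the largest shifts and the Irs promoters were the only ones among these genes with a match to the motifs searched. Each is the 250 bases before a RefSeq transcription start on GRCm38.p6, read 5′ to 3′ on the strand of the gene: chr1:82291440-82291689 for Irs1 (minus strand), chr8:11008930-11009179 for Irs2 (minus strand) and chr7:67952007-67952256 for Igf1r (plus strand). Capitals mark TGTTTTG, which is CAAAACA on the opposite strand, the core of the insulin response element.
Irs1: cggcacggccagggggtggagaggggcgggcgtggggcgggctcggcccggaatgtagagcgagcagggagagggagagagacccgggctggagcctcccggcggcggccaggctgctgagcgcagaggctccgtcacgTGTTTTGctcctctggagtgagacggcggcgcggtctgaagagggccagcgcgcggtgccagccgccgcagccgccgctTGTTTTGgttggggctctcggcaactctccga
Irs2: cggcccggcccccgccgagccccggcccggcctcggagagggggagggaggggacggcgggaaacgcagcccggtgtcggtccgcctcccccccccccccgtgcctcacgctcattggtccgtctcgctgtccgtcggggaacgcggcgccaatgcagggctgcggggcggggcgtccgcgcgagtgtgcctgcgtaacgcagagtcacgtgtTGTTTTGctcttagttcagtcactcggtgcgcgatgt
Igf1r: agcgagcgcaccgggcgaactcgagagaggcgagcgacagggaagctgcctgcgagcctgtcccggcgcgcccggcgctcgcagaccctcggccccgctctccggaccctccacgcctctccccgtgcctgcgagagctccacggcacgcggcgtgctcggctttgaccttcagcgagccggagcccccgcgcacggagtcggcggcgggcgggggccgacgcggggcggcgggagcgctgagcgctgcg
RefSeq promoter windows, of 300 bases each with 250 before and 50 after the start, were matched for 8 of the 9 genes, with 12 windows in all, and none was matched for Insr. CAAAACA on either strand was found in the windows of Irs1, starting 111 and 32 bases before the start site, and of Irs2, starting 37 bases before it, always on the strand opposite to the gene. Of 32851 promoter windows, 6.28% held it. The forkhead core GTAAACA, searched on both strands, was in none of the 12 windows and in 3.65% of all windows. The RefSeq start lies 23 bases upstream of the GENCODE start for Irs1, 471 for Irs2 and 570 for Igf1r. A match of letters is a description and no measure of binding, and no match says only that these letters are not in the window. These upstream stretches are rich in G and C, with 72.4% in Irs1, 72.8% in Irs2 and 77.6% in Igf1r against a median of 52.4% over all windows.

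Of the PI3K subunits, Pik3ca was called higher with FoxO6 and Pik3r1 did not pass the test. Pik3ca (ENSMUSG00000027665, chr3:32397671-32468486, plus strand), which encodes the catalytic subunit p110-alpha, was at 10.5, 15.55, 15.8, 15.6 and 12.97 TPM in OKS + DsRed from day 0 to day 7. The corresponding FoxO6 values were 18.3, 25.5, 22.6, 23.0 and 17.4. All 5 FoxO6 libraries were above all 5 control libraries in TPM, and Pik3ca was the only one of the 8 genes tested with this separation, which 2.33% of all genes tested had in that direction and 1.5% in the other. In CPM, 2 of the 8, Igf1r and Pik3ca, were separated, against 2.87% and 1.55% of all genes. The shift of Pik3ca was 0.52 with a standard error of 0.13 (adjusted p 0.0257 by edgeR), and it lost its call without day 0, 1, 3 or 5 (adjusted p 0.0564 to 0.0944) and with DESeq2 (0.0999).

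Pik3r1 (ENSMUSG00000041417, chr13:101680563-101768217, minus strand), which encodes the regulatory subunits p85-alpha and its shorter forms, gave 9.22, 18.9, 21.04, 23.5 and 18.6 TPM in OKS + DsRed. With FoxO6 it gave 12.2, 14.3, 15.9, 17.5 and 13.46. In TPM it was higher with FoxO6 at day 0 and lower from day 1 to day 7. The ratio per scaled library total was farthest below 1 at day 5, at 0.745 (counting interval 0.572 to 0.973), and was 0.975 at day 7, where the difference in log2(TPM + 1) was 0.17 above that of genes of like length. Its shift of -0.18 did not pass the test (standard error 0.15, adjusted p 0.49 by edgeR). In OKS + DsRed the TPM of Pik3ca was 1.14 times that of Pik3r1 at day 0 and 0.666 to 0.821 times on the later days, and in OKS + FoxO6 it was 1.29 to 1.78 times on all 5 days. From day 1 on, Pik3r1 was the more abundant of the pair in TPM in OKS + DsRed and Pik3ca in OKS + FoxO6, and this ratio was not tested. RSEM's effective length of Pik3r1 was 5994 and 5749 nucleotides in OKS + DsRed at days 3 and 7, and 7047 to 7052 in OKS + FoxO6. That of Pik3ca was shortest, at 5934, in OKS + FoxO6 at day 3. A shorter effective length gives a higher TPM for the same reads, so part of these ratios depends on it.

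Akt2 (ENSMUSG00000004056, chr7:27591552-27640826, plus strand), the Akt isoform best known for insulin-stimulated glucose uptake, was the most abundant of the 9 genes in all 10 libraries. The control libraries ran through 77.2, 121, 135, 191 and 144.75 TPM. Those with FoxO6 ran through 119.9, 167, 147, 187 and 185. The arms overlapped, and the shift of 0.28 did not pass the test (standard error 0.12, adjusted p 0.16 by edgeR). The ratio between the arms, per scaled library total, had a counting interval above 1 at day 0 (1.29, interval 1.07 to 1.57), day 1 (1.30, interval 1.11 to 1.53) and day 7 (1.48, interval 1.29 to 1.69), and was 1.01 and 1.04 at days 3 and 5. Akt2 was 3.22 to 7.59 times as abundant as Igf1r in TPM in OKS + DsRed and 1.99 to 4.06 times in OKS + FoxO6.

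The order of the 9 genes by TPM was stable at the top. Akt2 came first throughout, and Igf2r second in 9 libraries, with Igf1r second at day 7 of OKS + FoxO6. Irs2 and Igf1r took the third and the fourth place from day 1 on in OKS + DsRed, and on those days in OKS + FoxO6 up to day 5. Igf1 stood above Igf1r only in the OKS + DsRed library of day 0 and was the lowest of the 9 from day 1 on in both arms. Neighbours at the low end, such as Irs1 and Insr with FoxO6 at day 1 (both 20.96 TPM), could not be ordered, and with 1 library for each arm and day no order has a replicate check.

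None of the 8 genes tested had a linear trend with day past the threshold in either arm, where 5.06% of all genes rose and 5.81% fell with day in OKS + DsRed, and 4.37% rose and 4.52% fell in OKS + FoxO6. The steepest slopes were those of Irs1, at -0.22 per day on the log2 scale in OKS + DsRed (standard error 0.09, adjusted p 0.147 by edgeR) and -0.21 in OKS + FoxO6 (standard error 0.09, adjusted p 0.174). Irs2 had a slope of -0.14 in OKS + FoxO6 (standard error 0.04, adjusted p 0.0654 by edgeR; 0.0375 by DESeq2) and of -0.03 in OKS + DsRed (adjusted p 0.70). Akt2 had a slope of 0.10 in both arms (adjusted p 0.126 in OKS + DsRed and 0.0974 in OKS + FoxO6, by edgeR). Insr, Igf1r and Pik3r1 were highest at day 3 or day 5 in both arms, a course that a straight line does not describe. With an offset for length in each library, an alternative chosen after seeing the data, Irs1 in OKS + DsRed (-0.26 per day, adjusted p 0.0205 by edgeR) and Igf1r in OKS + FoxO6 (0.12 per day, adjusted p 0.0389) passed the threshold. The slopes of the arms differed past the threshold for none of the 8 genes and for 0 of the 11028 genes tested by edgeR (0.0%), of which 957 had an unadjusted p under 0.05, and DESeq2 called 34 of them but none of the 8.

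In TPM, the 9 genes were mostly higher with FoxO6 up to day 5, and 4 of 9 were higher at day 7, but the difference in log2(TPM + 1) over all expressed genes also moved, from a median of 0.13 at day 0 to -0.20 at day 7. Per scaled library total, 8 of the 9 were higher with FoxO6 on each day up to day 5 and 6 at day 7. At day 0 all 9 were higher in TPM, and Insr and Igf1r were past 2-fold, the size of change the study's methods use, with differences in log2(TPM + 1) of 1.43 and 1.15. Among all genes that reached a TPM of 1 in either library, 14.7% were 2-fold higher and 9.42% 2-fold lower at day 0. At day 1, 8 of the 9 were higher and none was past 2-fold, where 11.3% of genes were 2-fold higher and 13.3% lower. At day 3, Irs1 (1.07) and Igf1 (1.14, from 3 and 10 reads) were 2-fold higher, where 11.4% of genes were higher and 15.5% lower. At day 5, Igf1r (1.57) was 2-fold higher, where 13.8% of genes were higher and 15.0% lower. At day 7, Igf1r (1.13) again was the only one, with 4 of the 9 higher and 5 lower in TPM, where 10.7% of genes were 2-fold higher and 21.2% lower. None of the 9 was 2-fold lower on any day. Igf1r alone had a ratio per scaled library total with a counting interval above 1 on all 5 days, at 1.97, 1.83, 2.22, 2.71 and 2.41, where 2.74% of the 11028 genes tested were above 1 and 1.7% below 1 in this way.

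**Figure D3:**
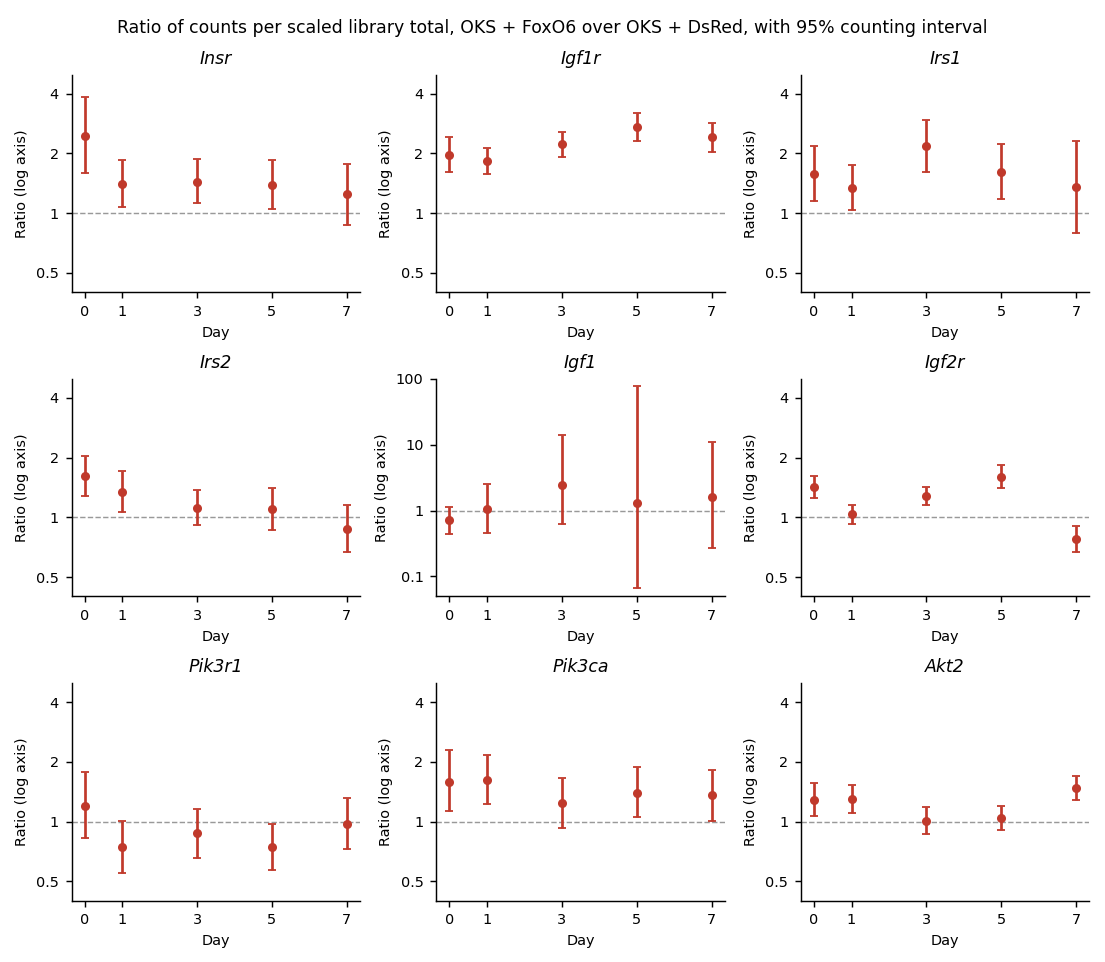
Each panel gives the ratio of OKS + FoxO6 to OKS + DsRed in counts per scaled library total (y axis, log scale, wider for Igf1) against the day (x axis), with 95% exact conditional binomial intervals that cover counting error only and a dashed line at a ratio of 1. Igf1r lies between 1.83 and 2.71 on all 5 days, and Igf2r drops below 1 at day 7, to 0.778.

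The libraries of day 0 and day 7 carry a trend with transcript length between the arms, and these genes are long. Effective lengths were 5749 nucleotides or more for 7 of the 9 in all libraries, and Akt2 had 2635 to 3069. At day 0, the median difference in log2(TPM + 1) was -0.07 for the shortest and 0.29 for the longest of 4 equal length classes of the expressed genes. At day 7 it was 0.03 and -0.44, and genes of 6000 nucleotides or longer had a median of 0.42 at day 0 and -0.63 at day 7. Against the median of 500 genes of like length, Insr was higher by 0.99 at day 0 and Igf1r by 0.71, and none of the 9 was past 2-fold. At day 7 the 8 genes that reached a TPM of 1 in either library (all but Igf1) were above genes of like length, by 0.17 to 1.81, with Igf1r at 1.81, Pik3ca at 0.98 and Irs1 at 0.89. Of all 9 genes, 8 were above genes of like length at each of days 0, 1 and 3, and 7 at day 5. Igf2r and Irs2, which had a lower TPM with FoxO6 at day 7, were above genes of like length by 0.19 and 0.24. On days 1, 3 and 5 the median of genes of like length stayed between -0.04 and 0.09 for all 9, so the trend was much smaller on those days. With an offset for length between the arms, edgeR gave shifts over the days of 1.21 for Igf1r, 0.69 for Irs1, 0.63 for Insr and 0.55 for Pik3ca, all 4 past the threshold.

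**Figure D4:**
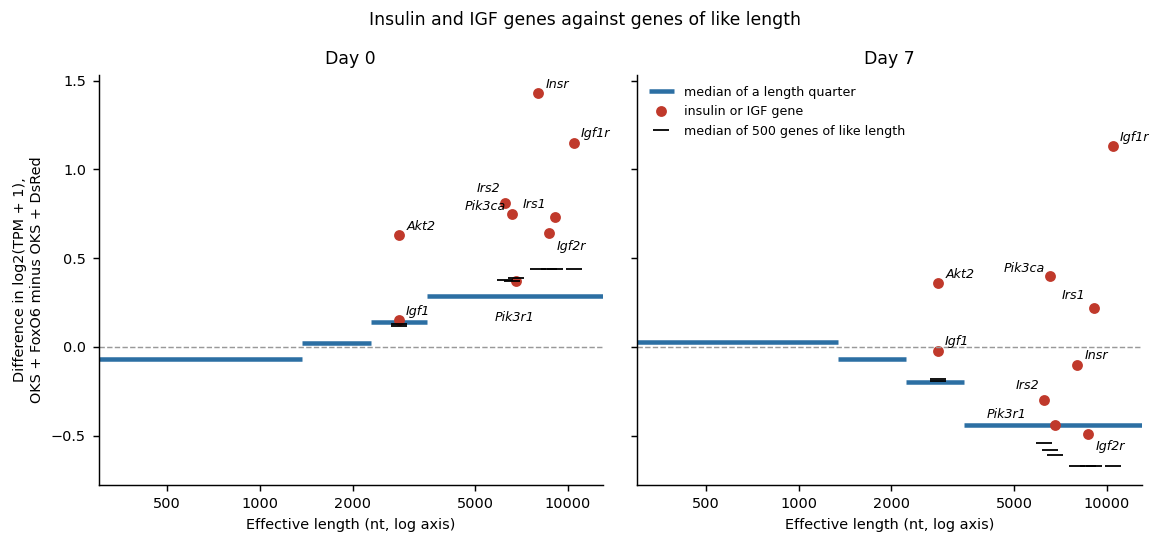
The panels, for day 0 (left) and day 7 (right), give the difference in log2(TPM + 1) between OKS + FoxO6 and OKS + DsRed (y axis) against effective length in nucleotides (x axis, log scale). Blue lines are medians of the 4 length classes of all expressed genes, black dashes the median of 500 genes of like length and red points the 9 genes. Long genes run upward at day 0 and downward at day 7, and at day 7 each red point lies above its black dash, Igf1 from only 3 and 4 reads.

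Of the 60 other genes of the pathway on a list of ligands, adaptors, inhibitors, subunits, kinases and targets, 48 were tested. Of these, 6 were called higher with FoxO6 and 1 lower, with a median shift of 0.09, where 6.86% of all genes tested were called higher and 7.05% lower. This list too was chosen with earlier results of these data known. The insulin genes Ins1 and Ins2 and the receptor-like Insrr had 0 reads in all 10 libraries. The fetal ligand Igf2 was higher by 1.04 (standard error 0.25, adjusted p 0.019 by edgeR), and its TPM went from 1172 at day 0 to 11.4 at day 7 in OKS + DsRed and from 1439 to 71.1 in OKS + FoxO6. It fell with day in both arms, by 0.94 and 0.62 per day on the log2 scale (adjusted p 0.000235 and 0.00166 by edgeR), so the ligands Igf1 and Igf2 were both highest at day 0. Gab2, another docking adaptor, was higher by 0.81, and Pik3cb, the catalytic subunit p110-beta, by 0.55 (adjusted p 0.0158 and 0.0231 by edgeR). Among 14 inhibitors tested, Socs3, a feedback inhibitor of cytokine and insulin receptors, was higher by 0.89 and Pik3ip1, a transmembrane inhibitor of PI3K, by 1.20 (adjusted p 0.000698 and 0.00371 by edgeR). Pik3ip1 rests on 7 to 51 reads per library in OKS + DsRed and 66 to 137 in OKS + FoxO6. Eif4ebp1, the translation repressor downstream of mTORC1, was higher by 0.66, and Tbc1d1, an Akt substrate in glucose transporter traffic, was lower by 0.97 with a TPM of 47.7 to 89.0 in OKS + DsRed and 30.5 to 44.4 in OKS + FoxO6 (adjusted p 0.0331 and 0.00449 by edgeR). Pik3ip1, Socs3 and Tbc1d1 were called whichever day was left out, while without day 3 or day 5 the calls of Igf2 (0.94 to 1.05) and Gab2 (0.72 to 0.79) were lost, as were those of Pik3cb without day 1, 3 or 5 (0.52 to 0.55) or with DESeq2 (0.54, adjusted p 0.0875) and Eif4ebp1 without day 1, 3, 5 or 7 (0.55 to 0.75).

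With day, 1 of these 48 genes rose and 6 fell in OKS + DsRed, and 5 fell in OKS + FoxO6, where 5.06% of all genes rose and 5.81% fell in OKS + DsRed and 4.37% rose and 4.52% fell in OKS + FoxO6. The receptor-binding inhibitors Grb10 and Grb14 fell in both arms, Grb10 by 0.20 and 0.25 per day on the log2 scale and Grb14 by 0.98 and 0.49, in OKS + DsRed and OKS + FoxO6 in turn (adjusted p 0.000214 to 0.00667 by edgeR). Grb14 went from a TPM of 119.8 at day 0 to 1.62 at day 7 in OKS + DsRed and from 59.8 to 3.48 in OKS + FoxO6, where 2 and 6 reads were left. Gab2 fell in both arms (0.33 and 0.26 per day), Akt1 and Eif4ebp1 in OKS + DsRed (0.15 and 0.31 per day), and Ptpn11, the phosphatase Shp2, in OKS + FoxO6 (0.14 per day). Gsk3b, a kinase that Akt inhibits, rose by 0.14 per day in OKS + DsRed (adjusted p 0.0422 by edgeR) and is named after its values were seen. The slope of Gsk3b lost its call without any of the 5 days (0.12 to 0.15), that of Ptpn11 without day 0, 1, 5 or 7 (-0.15 to -0.12), that of Eif4ebp1 without day 0, 1 or 5 (-0.33 to -0.20), that of Akt1 without day 1 or 5 (-0.15) and that of Gab2 in OKS + FoxO6 without day 0 (-0.22). With the offset for length between the arms, Ptpn11 (-0.11, adjusted p 0.061 by edgeR) and Gsk3b (0.10, adjusted p 0.123) also lost their calls, and Gsk3b did so without the filter on low counts (adjusted p 0.0569). None of the 48 had slopes that differed between the arms past the threshold, so a fall called in only 1 arm is not shown to be particular to it.

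The genes most like those that shifted were found by Pearson correlation of log2 CPM over the 10 libraries, among 10684 tested genes whose mean TPM reached 5, as a description, since the libraries share arms and days. Sema6d (r 0.988), Adh7 (0.984) and Rtn3 (0.981) were closest to Igf1r, and their TPM ranges were 12.0 to 24.4 in OKS + DsRed and 29.9 to 68.8 in OKS + FoxO6 for Sema6d, 29.9 to 97.15 and 144.8 to 433 for Adh7, and 130.3 to 232 and 258 to 479 for Rtn3. Mon1b, Rfx7 and Golga3 (r 0.959 to 0.968) were closest to Insr. Cep170, Prdm4 and Zzef1 (r 0.956 to 0.957) were closest to Irs1, and Dram2, Dcaf6 and Epb41l5 (r 0.936 to 0.954) to Pik3ca. Among the 8 tested genes themselves, Igf1r followed Pik3ca most closely (r 0.90) and Pik3r1 least (0.01), and Irs1 and Irs2 followed Igf2r (0.85 and 0.86).

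Among the 4 calls, Igf1r was called in all 5 fits that left out the libraries of a day (1.07 to 1.23). Irs1 was called in 3 of the 5 and lost the call without day 3 (0.57, adjusted p 0.0795 by edgeR) or day 5 (0.68, adjusted p 0.0604). Insr and Pik3ca were each called in 1 of the 5, without day 7, with shifts of 0.46 to 0.64 and 0.48 to 0.58 in the 5 fits.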

How the data were processed

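Bulk mRNA was sequenced from 10 libraries, 1 per arm and day, grouped by their labels. The authors aligned reads with RSEM and bowtie2 to the GENCODE M13 transcriptome (mm10, versions not stated), and the deposited expected counts are RSEM estimates without normalization. The deposited TPM and effective lengths came from the same RSEM runs. The methods name a TruSeq kit and the labels a VAHTS mRNA-seq V3 kit. Expected counts were identical in the series table and in the files of the libraries, and 2124 genes held only in the latter took at most 0.312% of a library. At 1208379 to 2225750 counts per library (median 1601151), genes with few reads were poorly measured.

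Expected counts were rounded and fitted with edgeR 4.0.16 in R 4.3.3 (TMM, filterByExpr, quasi-likelihood test). The arm shift used day as a factor (common dispersion 0.034, 4 residual degrees of freedom), and the trends used day as a number within each arm (0.0566 and 6). Standard errors are those implied by the F statistic. Both fits were also run on simulated counts of independent libraries, with arm shifts larger than those named here. The outcome of that run is not given here, and it is no check of shifts of the reported size. The alternatives were DESeq2 1.42.0, its size factors, an unfiltered table, a fit of the arm alone, length offsets, log2(day + 1), and leaving out each day in turn. Single days were compared in log2(TPM + 1), with a pseudocount of 1 that understates changes of low genes, and with Python 3.11.15 and scipy 1.17.1 for exact (Clopper-Pearson) conditional binomial 95% intervals. CPM for correlations had a prior count of 2. Positions are from GENCODE M21 and promoters from RefSeq (GRCm38.p6).

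The 9 genes and the lists were chosen with earlier results of these data known. Named besides them were pathway genes past the threshold of the shift, or of a trend (up to 5 by smallest p), and the 3 most alike genes of each shifted gene. Markers singled out, overlapping genes, ligands without reads and Gsk3b were named after their values were seen. No protein sequence was used here.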

Additional observations from a re-analysis of the deposited data

Results flagged for a closer look

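Igf2r changed direction between days. Its ratio of OKS + FoxO6 to OKS + DsRed, in counts per scaled library total, was 0.778 at day 7, with the counting interval below 1, and above 1 with the interval above 1 at days 0, 3 and 5 (1.42, 1.28 and 1.60). The change was not tested day by day, since each value compares 2 single libraries, and the slopes with day did not differ past the threshold (-0.05 per day, adjusted p 0.874 by edgeR). In log2(TPM + 1) the difference at day 7 was -0.49, where 500 genes of like length had a median of -0.67.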

How the results depend on the processing

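Of the shifts of the 8 tested genes, none changed sign under the 11 alternatives. Igf1r stayed past the threshold in all 11 (1.07 to 1.23), Irs1 in 8, and Insr and Pik3ca in 5 each, while Irs2, Igf2r, Pik3r1 and Akt2 were past it in none. The number called, 4 as reported, was 2 with DESeq2 (Igf1r and Irs1), 1 without the day term (Igf1r) and 1 to 4 when a day was left out. Among the other pathway genes, the 7 called became 1 without the day term (Tbc1d1) and 3 to 7 when a day was left out, with Pik3ip1, Socs3 and Tbc1d1 kept without day 3 or day 5.

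Of the 8 tested receptor and adaptor genes, 0 had a day trend past the threshold in either arm. Without the filter on low counts, which lets Igf1 be tested, 1 of 9 was called in each (Igf1), and leaving out days gave 0 to 1 (Igf1, without day 3 or 7 in OKS + DsRed and without day 7 in OKS + FoxO6). An offset for length in each library, chosen after seeing the data, gave 1 in OKS + DsRed (Irs1, -0.26 per day, adjusted p 0.0205 by edgeR) and 1 in OKS + FoxO6 (Igf1r, 0.12 per day), and DESeq2 gave 1 in OKS + FoxO6 (Irs2). The slope of Irs2 in OKS + DsRed, -0.03, ran from -0.06 to 0.02 when a day was left out and was positive without day 7.

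Past 2-fold at day 0, the 2 genes became 1 in CPM (Insr) and 0 after removing the length trend, and at day 3 the 2 became 1 with a TPM of at least 5 (Irs1). Settings not named here left these counts within 1.5 times. The shift compares the arms within days, and the fit without the day term is its unpaired form; the labels carry no replicate numbers for another pairing. The read depth limits Igf1 most, with 1 to 4 reads at days 5 and 7.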
